A study of Homo sapiens with 3 samples.

Results

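Keratins are the intermediate filament proteins of epithelial cells. Type I (acidic) and type II (basic to neutral) keratins pair with each other, so that a filament holds equal amounts of both types, and the pair used differs between epithelia. KRT8 and KRT18 are the pair of simple epithelia and the only keratins of normal adult hepatocytes, whereas KRT7 and KRT19 are added in bile ducts and other ductal epithelia. In liver, keratin filaments protect against mechanical and toxic stress, and caspases cleave KRT18 during apoptosis.

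Etoposide, which traps topoisomerase II on DNA and so causes double-strand breaks, was given to HepG2 cells, a human hepatocellular carcinoma line with wild-type p53, in a study that set a low dose, used to bring on senescence, against a high dose, used to bring on apoptosis. Total RNA was profiled on a one-color Agilent array in 3 conditions, each at 30 h. These were 0 μM (hereafter control), 10 μM (low dose) and 100 μM (high dose) etoposide. The control was labelled untreated, whereas the paper gives its array ratios over DMSO. There was 1 array per condition, all 3 conditions being the same line on the same slide. No comparison therefore has a replicate or a test, and every difference below is a difference between arrays.

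Epithelial keratins were taken as 10 named genes, the type II keratins KRT7, KRT8 and KRT80 and the type I keratins KRT10, KRT15, KRT17, KRT18, KRT19, KRT20 and KRT23, among 27274 gene names on the array. They were represented by 13 of 34127 probes, with 2 probes each for KRT8, KRT18 and KRT23. Another 45 keratin genes were on the array and served as the comparison.

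Signals are the processed fluorescence of a spot in arbitrary units, and a probe was called well above background by the scanner software. The 75th percentile of an array's probes was 514 in control, 536 in low-dose and 432 in high-dose cells, and ratios were computed after setting each array relative to it. A ratio past 2-fold was counted as a call. Probes spotted 10 times differed between their own spots by a median SD of 0.048 to 0.053 on the log2 scale at signals of 300 to 1000, and by 0.226 to 0.248 at signals of 20 to 50. The spot SD given beside a ratio comes from the 50 such probes nearest in signal on each array compared. For the brightest probes, such as the brighter KRT18 probe, the nearest need not be of like signal. It covers spot-to-spot error only, not the spread between cultures. In RNA from whole cultures, fewer cells of a type and less RNA per cell cannot be told apart.

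Probes differ in position and in what else they could bind, so those on which the results turn are shown. The lower-signal probe of KRT23 (hg18 chr17:36335246-36335305, minus strand) is shown because it repeated the pattern of the other KRT23 probe. The 2 KRT18 probes (chr12:51631844-51631903 and chr12:51632383-51632821, plus strand) and the lower-signal KRT8 probe (chr12:51580728-51581262, minus strand) are shown because the listed intervals of the latter 2 span 439 and 535 bases for a probe of 60 bases, so that they lie on either side of at least 1 intron. The gene models of hg18 were not used here, so exons and untranslated regions are not named. All are written 5′ to 3′, and no letters are capitalized.
KRT23, lower-signal probe: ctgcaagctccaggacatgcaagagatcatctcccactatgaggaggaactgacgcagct
KRT18, brighter probe: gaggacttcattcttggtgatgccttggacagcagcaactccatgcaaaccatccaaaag
KRT18, second probe: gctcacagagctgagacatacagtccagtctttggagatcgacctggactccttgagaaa
KRT8, lower-signal probe: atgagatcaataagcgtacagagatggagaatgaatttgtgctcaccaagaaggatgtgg

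Of the 10 keratins, 7 (KRT7, KRT8, KRT10, KRT15, KRT18, KRT19 and KRT23) were well above background on all 3 arrays, KRT80 only on the low-dose array, and KRT17 and KRT20 on none. Among the other 45 keratins, 11 (24.4%) were well above background on all arrays, compared with 15177 (55.6%) of all gene names. KRT23 rose at the low dose, by 3.08-fold on its brighter probe and 2.90-fold on the other, and KRT80 rose by at least 2.05-fold. The other 6 detected keratins differed from control by less than 2-fold at both doses.

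**Figure D1:**
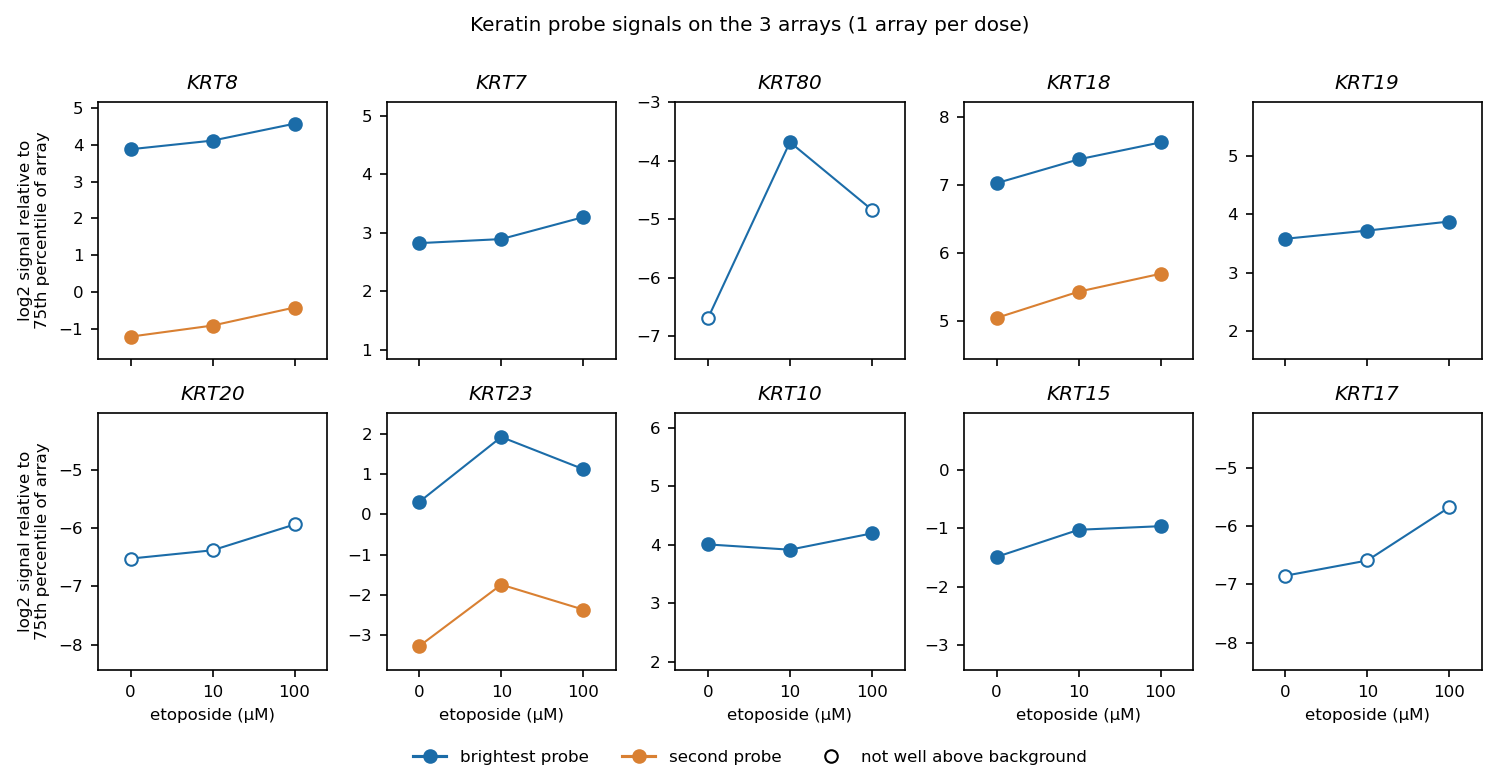
Signals of the 13 keratin probes (log2, with each array set to its own 75th percentile) against etoposide dose, 1 array per point, with filled points well above background and open points not. Panels have their own vertical ranges, and levels of different probes are not comparable. Both KRT23 probes peak at 10 μM, and KRT17, KRT20 and 2 of the 3 KRT80 points are open.

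KRT23 is a type I keratin first described as a gene induced by histone deacetylase inhibition in pancreatic cancer cells. Its brighter probe (chr17:36332488-36332547, minus strand) gave signals of 640 in control, 2054 in low-dose and 949 in high-dose cells. The low dose was highest and the control lowest. The scaled log2 ratio over control was 1.62 for the low dose (spot SD 0.078) and 0.82 for the high dose (spot SD 0.086), the latter being 1.76-fold and short of 2-fold. The lower-signal probe printed above gave signals of 52.6, 159 and 83.3 in the same order of conditions. Its log2 ratios of 1.54 (spot SD 0.203) and 0.91 (spot SD 0.223) differed from those of the brighter probe by less than 1 spot SD.

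Directly compared, the high dose was 0.80 below the low dose on the log2 scale for the brighter KRT23 probe (log2 ratio -0.80, spot SD 0.071), and the low dose was 1.74-fold higher. The other probe gave a log2 ratio of -0.62 (spot SD 0.133). Neither passed 2-fold, but the brighter probe did so without scaling between the arrays (log2 ratio -1.11), with scaling to the array median (-1.07) and with scaling to the spike-in probes (-1.03). Of the 15177 genes detected well above background throughout, 112 had a larger ratio at the low dose over control than KRT23, and 1210 had a larger ratio at the high dose.

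KRT80, a type II keratin found near desmosomes in differentiating epithelia, gave signals of 4.96 in control, 41.8 in low-dose and 15.1 in high-dose cells at chr12:50849752-50849811 (minus strand). The low-dose spot alone was well above background. The dim control spot was set to 19.5, the weakest signal that the software placed well above background there. Low-dose cells were then at least 2.05-fold above control and, by the same rule, at least 1.56-fold above high-dose cells. No ratio of the high dose over control can be given. The call rests on 1 low-dose spot (spot SD 0.230), and the bound was under 2-fold with quantile normalization (log2 ratio 0.98) and with another background correction, normexp (0.37).

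Calls were thus made for 2 of the 8 keratins with a ratio at the low dose, both higher, against 3.37% of 16714 genes called higher and 1.57% called lower. At the high dose over control, 0 of 7 keratins were called in either direction, against 6.74% higher and 3.63% lower of 16977 genes. At the high dose over the low dose, 0 of 8 were called in either direction, against 3.94% higher and 3.64% lower of 16791 genes. KRT80 entered 2 of these comparisons only because its low-dose spot was bright enough, so its direction there was fixed by the filter.

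**Figure D2:**
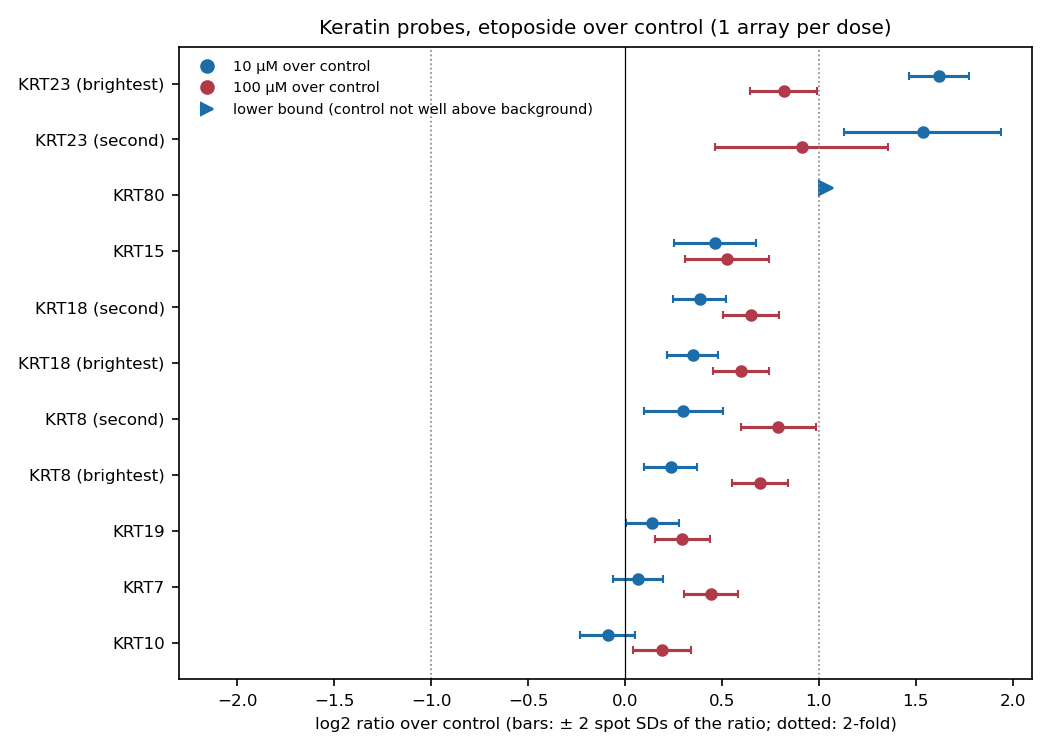
Log2 ratio over control of the keratin probes with a ratio, at 10 μM (blue) and 100 μM (red), with bars of 2 spot SDs to each side and dotted lines at 2-fold. The 2 KRT23 probes lie at 1.62 and 1.54 at the low dose, the KRT80 triangle is a lower bound of 1.04, and the other keratins lie between -0.09 and 0.79. The KRT10 point at 100 μM is below 0 without scaling between arrays and with median scaling.

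The hepatocyte pair KRT8 and KRT18 stayed within 2-fold of control. KRT8, the type II partner (brighter probe at chr12:51577293-51577352, minus strand), gave signals of 7577 in control, 9304 in low-dose and 10315 in high-dose cells. The order was control, low dose, high dose, and the scaled log2 ratios over control were 0.24 (spot SD 0.068) and 0.69 (spot SD 0.073). The lower-signal probe gave signals of 222, 285 and 323, and log2 ratios of 0.30 and 0.79. The high dose was above the low dose by 0.46 on the log2 scale (spot SD 0.072) for the brighter probe.

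KRT18, the type I partner, gave signals of 66804 in control, 88822 in low-dose and 85129 in high-dose cells on its brighter probe. No spot was saturated on any array. The scaled log2 ratios over control were 0.35 (spot SD 0.066) and 0.60 (spot SD 0.073). The second probe gave signals of 16912, 23054 and 22306, with log2 ratios of 0.39 and 0.65. Both treated arrays were above control on both probes, whereas the order of the 2 doses depended on scaling. The log2 ratio of the high dose over the low dose was 0.25 as scaled here, -0.06 without scaling and -0.02 with median scaling.

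The log2 ratios over control of KRT18 and KRT8 differed by 0.11 for the low dose (spot SD of the difference 0.095) and by -0.10 for the high dose (spot SD 0.103), KRT18 minus KRT8. The same difference for the high dose over the low dose was -0.21 (spot SD 0.098). Such differences between genes on the same arrays do not depend on the scaling factor.

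Probes named for pseudogenes of this pair were also on the array, and were chosen after their values were seen. FLJ40504, a KRT18 pseudogene, gave signals of 20134, 29228 and 27923 in control, low-dose and high-dose cells, with log2 ratios over control of 0.48 and 0.72. KRT8P12, a KRT8 pseudogene, gave signals of 1836, 2285 and 2788, with log2 ratios of 0.25 and 0.85. A KRT18-like predicted gene, LOC442249, had log2 ratios of 0.34 and 0.58. The sequences of these pseudogene probes shared no run over 9 bases with a probe of the 10 keratins. The full sequences of the pseudogenes were not compared. Near-identical copies can nevertheless bind the same probe, so the KRT8 and KRT18 signals, and those of the pseudogene probes, are uncertain as to which copy they measure.

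Ductal and simple-epithelial keratins followed with smaller ratios. KRT7, the type II keratin of ducts (chr12:50928857-50928916, plus strand), gave signals of 3635 in control, 3980 in low-dose and 4161 in high-dose cells. Its log2 ratio over control was 0.07 for the low dose (spot SD 0.065), about 1 spot SD, and 0.44 for the high dose (spot SD 0.069). KRT19, the type I keratin that lacks most of the tail domain (chr17:36933444-36933503, minus strand), gave signals of 6158, 7080 and 6356, and log2 ratios of 0.14 (spot SD 0.068) and 0.30 (spot SD 0.071). The latter was 0.01 with median scaling. KRT20, a keratin of intestinal and urothelial cells (chr17:36286058-36286117, minus strand), gave signals of 5.59, 6.44 and 7.04, none well above background.

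Keratins of stratified epithelia were split between detected and undetected genes. KRT10, of suprabasal epidermis (chr17:36227962-36228021, minus strand), gave signals of 8251 in control, 8086 in low-dose and 7910 in high-dose cells. Its log2 ratio was -0.09 for the low dose (spot SD 0.070) and 0.19 for the high dose (spot SD 0.075), but -0.06 without scaling and -0.10 with median scaling, so no direction can be given at the high dose. KRT15, of basal keratinocytes and the hair follicle bulge (chr17:36923668-36923727, minus strand), gave signals of 183, 263 and 221. The control was lowest, and the log2 ratios over control were 0.46 (spot SD 0.105) and 0.53 (spot SD 0.108). KRT17, of skin appendages and wounds (chr17:37030502-37030561, minus strand), gave signals of 4.45, 5.56 and 8.42, none well above background.

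Over the keratins with a ratio, the median log2 ratio over control was 0.29 for the low dose and 0.53 for the high dose, beside -0.04 and 0.10 over all genes with a ratio. The medians over the 7 keratins measured on all arrays were 0.24 and 0.53. Of these 7, 6 were above 0 for the low dose and 7 for the high dose, with KRT10 below 0 at the high dose in the absence of scaling and with median scaling. Over all genes measured on both arrays, 7039 of 15449 were above 0 for the low dose and 8866 of 15465 for the high dose. For the high dose over the low dose the median was 0.20, beside 0.11 over all genes, and it turned to -0.11 without scaling, -0.06 with median scaling and -0.02 with spike-in scaling. The sign of that last comparison was therefore not settled for KRT10, KRT15, KRT18 and KRT19, whose ratios changed sign between scalings.

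The 3 arrays give 2 ratios over control per gene, and on these the genes nearest to KRT23 among 15176 others well above background on all arrays were ISYNA1, RRM2B and CAMK2N2. ISYNA1, which makes inositol phosphate from glucose 6-phosphate, had log2 ratios of 1.54 and 0.75 at a Euclidean distance of 0.103. RRM2B, a ribonucleotide reductase subunit, had 1.61 and 0.94 at a distance of 0.120. CAMK2N2, an inhibitor of calcium/calmodulin-dependent kinase, had 1.62 and 0.68 at a distance of 0.138.

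Of the other 45 keratins, 31 were well above background on no array. At the low dose 4 type I and 9 type II genes were tested, and 1 was called higher and 1 lower, beside 3.37% and 1.57% of all genes tested. At the high dose 3 and 10 were tested, and 2 were called higher and 0 lower, beside 6.74% and 3.63%. KRT79, a type II keratin of sebaceous ducts and hair follicle openings (chr12:51501588-51501647, minus strand), gave signals of 4663 in control, 1709 in low-dose and 6343 in high-dose cells. It fell at the low dose (log2 ratio -1.51, spot SD 0.066) and was above control at the high dose (0.69, spot SD 0.071). KRT13, a type I keratin of internal stratified epithelia, was well above background only at the low dose, with signals of 4.71, 42.0 and 16.4, and was at least 2.06-fold higher than control there. The same bound was under 2-fold with quantile normalization and with normexp. KRT13 had this ratio only because its low-dose spot was bright enough, so the direction of its call was fixed by the filter.

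KRT6C, a type II keratin of palmoplantar skin, was well above background only at the high dose, with signals of 3.99, 4.65 and 48.3, and was at least 2.94-fold higher than control, a bound that was under 2-fold with normexp. The direction of this call was likewise fixed by the filter. KRT39, a hair type I keratin, gave signals of 28.0, 42.5 and 48.2, and its log2 ratio at the high dose was 1.03 (spot SD 0.375). This was under 2-fold under 5 of 13 alternative settings. The median log2 ratios of the other type I and type II keratins were 0.33 over 4 genes and -0.13 over 9 genes at the low dose. The corresponding medians at the high dose were 0.58 over 3 genes and 0.52 over the 9 of 10 for which a ratio could be given. With bounds left out, the type I and type II medians were 0.12 and -0.12 at the low dose and 0.58 and 0.41 at the high dose.

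**Figure D3:**
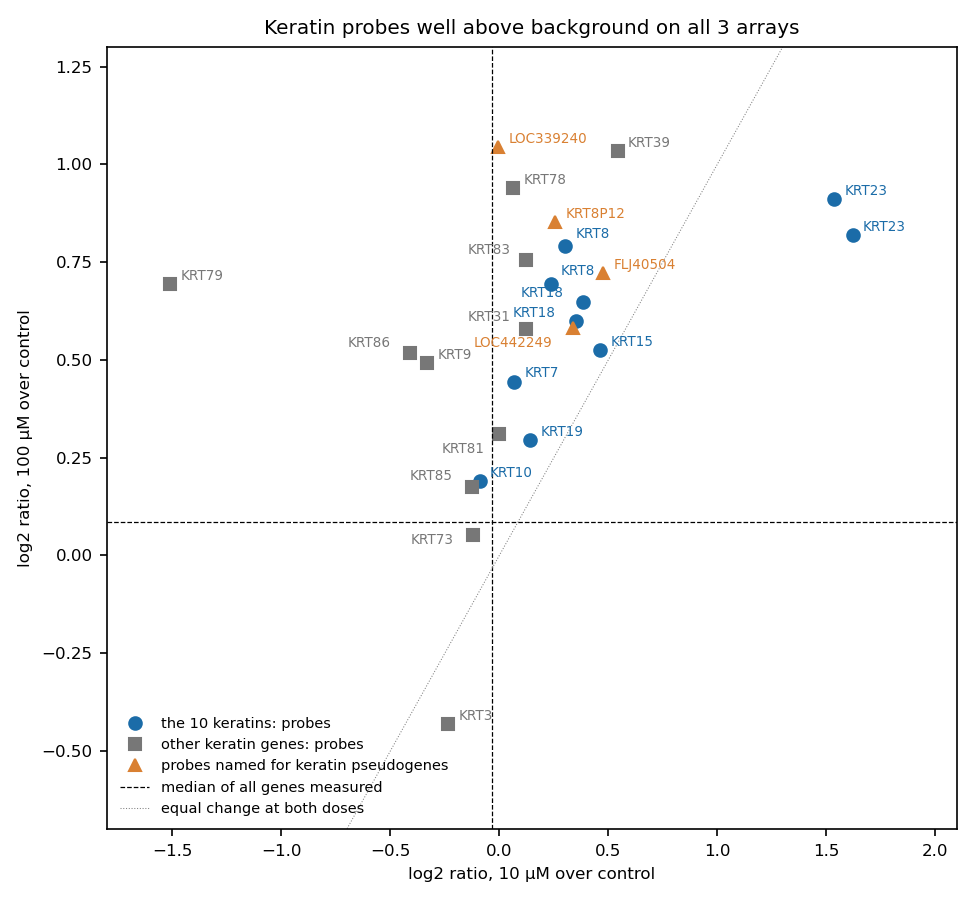
Log2 ratio over control at 100 μM against 10 μM for every keratin probe well above background on all 3 arrays, with the 10 keratins in blue, other keratin genes in grey and pseudogene-named probes in orange. The 2 KRT23 points lie far right at 1.62 and 1.54, and KRT79 lies alone on the left at -1.51. The dashed lines are the medians of all genes measured, and the vertical positions shift together under another scaling.

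In the human genome KRT8 and KRT18 are neighbours on chromosome 12, where KRT18 is the type I gene within the type II cluster, and KRT20 and KRT23 are neighbours on chromosome 17. KRT7 and KRT80 are also neighbours, as are KRT15 and KRT19. Neighbours thus include a pair with like ratios (KRT8 and KRT18) and a pair in which KRT23 rose at the low dose and KRT20 was not detected.

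Promoter sequences from RefSeq (GRCh38.p14) were matched for 3 of the 10 keratins, KRT8, KRT10 and KRT20, and the 250 bases before the start were searched on both strands for the TATA box (TATAAA), the GC box (written GGGCGG), the CCAAT box, the AP-1 site (any letter at N in TGANTCA) and the p53 half-site. All 3 held a p53 half-site, as did 5.53% of 27305 promoters. None of these 3 genes was called at either dose, and KRT20 was not detected. KRT23 and KRT80, called at the low dose, had no matched promoter. The relation of matches to ratios was not tested. KRT10 held the TATA box, present in 11.1% of promoters, with its first base 29 bases before the start. The CCAAT box was in KRT10 and KRT20 and in 33.0% of promoters. The GC box and the AP-1 site, in 42.3% and 6.60% of promoters, were in none of the 3. The KRT8 promoter (chr12:52926470-52926719, minus strand) is shown for the hepatocyte pair, with the p53 half-site in capitals. Only the first listed start of each gene was used. Whether the KRT8 probes measure the transcript that begins at this start was not checked. A match is a run of letters, not an occupied site.
KRT8 promoter: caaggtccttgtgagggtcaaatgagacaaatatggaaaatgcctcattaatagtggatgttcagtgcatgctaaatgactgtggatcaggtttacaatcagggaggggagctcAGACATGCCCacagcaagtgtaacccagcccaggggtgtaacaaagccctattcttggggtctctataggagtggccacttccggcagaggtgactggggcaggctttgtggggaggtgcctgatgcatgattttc

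Genes that act with keratins were then described by list. Calls in each list below stand beside 3.37% higher and 1.57% lower of all genes tested at the low dose. At the high dose over control these shares were 6.74% and 3.63%. Among 21 keratin-binding and keratin-modifying proteins, all with a ratio, 3 rose under the low and 2 under the high dose, and the median log2 ratios were 0.13 and 0.06. SFN (14-3-3 sigma), a keratin-binding adaptor, gave signals of 4355 in control, 18803 in low-dose and 9520 in high-dose cells. It rose at both doses, with log2 ratios of 2.05 and 1.38, and this held under all 13 alternative settings. FBF1, an albatross protein that binds keratin filaments, rose with log2 ratios of 1.54 and 1.21. The first was under 2-fold with normexp (0.75), and the second under 5 of 13 settings. RPS6KA1, a kinase of the ERK pathway, rose at the low dose (1.21) and had a log2 ratio of 0.64 at the high dose.

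Desmosome and plakin genes, which anchor keratin filaments at cell junctions, had a ratio for 14 of 20 genes, with 1 call (low dose) and 2 calls (high dose), all higher. The medians were 0.22 and 0.40. EPPK1 (epiplakin), which binds KRT8 and KRT18 filaments, gave signals of 33.0 in control, 138 in low-dose and 72.8 in high-dose cells, and rose with log2 ratios of 2.0 and 1.39. Both ratios were under 2-fold with normexp. PPL (periplakin) had log2 ratios of 0.89 and 1.22, the latter under 2-fold without scaling, with median scaling and with normexp. PLEC1 (plectin), which links filament types, had ratios of 0.75 and 0.97.

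Of 8 hemidesmosome genes, which anchor keratins at the basal membrane, 6 had a ratio and 0 were called. Ratios over control were 0.92 and 0.86 for LAD1 and -0.51 and -0.17 for LAMA3, and the ratio of LAMA3 changed sign between settings. Of 6 caspases that cleave KRT18 or act before them, 0 were called. CASP9, an initiator, had log2 ratios of 0.23 and 0.58, CASP8, another initiator, 0.09 and 0.30, and CASP6, which cleaves KRT18, -0.24 and -0.30. These are transcript levels and say nothing of cleavage.

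Other cytoplasmic intermediate filaments had a ratio for 7 of 13 genes, with medians of 0.12 and 0.68. NES (nestin), of progenitor cells, gave signals of 796 in control, 1826 in low-dose and 1823 in high-dose cells and rose at both doses, with log2 ratios of 1.14 and 1.44, the former being 0.96 and under 2-fold with its dimmest probe. PRPH (peripherin), of neurons, had ratios of 0.59 and 1.20, and was under 2-fold under 4 of 13 settings at the high dose. SYNM (synemin), of muscle, had 0.95 and 0.68. VIM (vimentin), the filament of mesenchymal cells, was not well above background on any array.

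Cornified envelope and squamous genes, which accompany keratins in stratified epithelia, had 3 calls higher and 1 lower at the low dose among 10 of 20 genes tested, and 2 higher at the high dose among 11. LY6D, a surface protein of squamous cells, gave signals of 121 in control, 943 in low-dose and 161 in high-dose cells. It rose at the low dose (log2 ratio 2.90) and had a ratio of 0.66 at the high dose. CSTA (cystatin A), a protease inhibitor, rose at the low dose (1.77, against 0.86 at the high dose), and FLG (filaggrin), which aggregates keratin filaments, fell at the low dose (-1.19), a call that was lost with normexp and with the mean over its probes. The remaining calls, named after their values were seen, were bounds for KLK6 at both doses and KLK7 at the high dose. Neither gene was well above background in control, so the direction of these calls was fixed by the filter.

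Epithelial transcription factors had a ratio for 11 (low dose) and 12 (high dose) of 20 genes, with medians of 0.60 and 0.37, and with 2 and 3 calls, all higher. These medians include bounds, whose direction was fixed by the filter. Over the 9 genes measured on both arrays the medians were 0.58 and 0.07, beside -0.03 and 0.09 over all genes measured. GRHL1, of the grainyhead family, had log2 ratios of 0.53 and 1.15, the latter under 2-fold under 5 of 12 settings. FOSL1, an AP-1 subunit, had ratios of 0.87 and -0.03, and ELF3, an epithelial ETS factor, had 0.87 and 0.81. OVOL1 and GRHL3, named after their values were seen, were not well above background in control. The direction of their calls over control was therefore fixed by the filter. OVOL1 was at least 15.4-fold and at least 4.35-fold higher at the low and high doses, and GRHL3 was at least 4.85-fold and at least 2.18-fold higher.

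Epithelial junction genes had a ratio for 14 of 15, with medians of 0.07 and 0.38. CLDN2, a claudin of leaky epithelia, fell at the low dose (log2 ratio -1.19, but -0.85 and within 2-fold with normexp) and had a ratio of 0.01 at the high dose. CDH1 (E-cadherin) and CLDN6, an embryonic claudin, rose at the high dose (1.12 and 1.09), with ratios of 0.26 and 0.93 at the low dose. Both rises were under 2-fold without scaling, with median and spike-in scaling and with normexp.

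**Figure D4:**
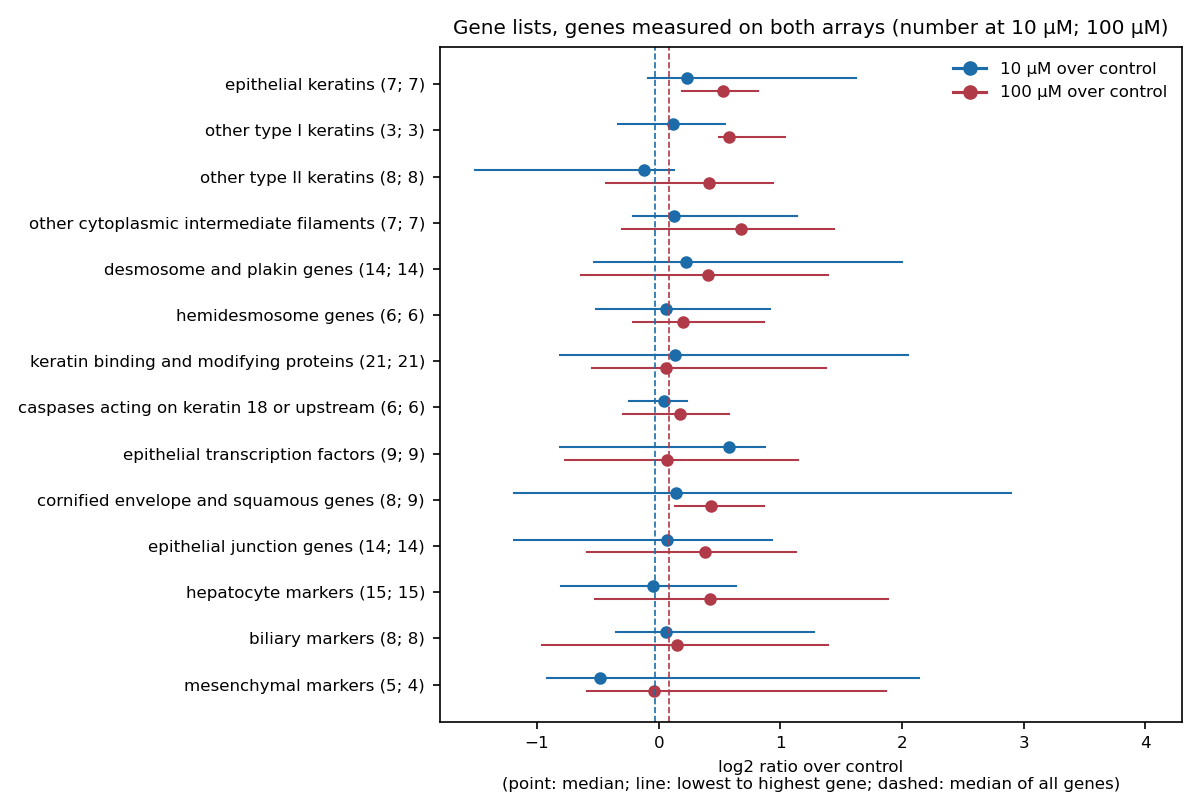
Median (point) and range (line) of the log2 ratio over control in each gene list, over genes well above background on both arrays of the ratio, at 10 μM (blue) and 100 μM (red), with dashed lines at the medians of all genes measured. The epithelial keratins have medians of 0.24 and 0.53, beside -0.03 and 0.09 over all genes measured. Red points shift together to the left without scaling between arrays.

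Marker lists of cell types were read for the identity of the cultures. All 15 hepatocyte markers were well above background on each array, and their summed level relative to the 75th percentile was 916 in control, 949 in low-dose and 1197 in high-dose cells, with medians of the log2 ratio of -0.05 and 0.42. Over the settings these medians ranged from -0.07 to 0.03 and from 0.13 to 0.49. The summed levels of all 3 marker lists also depend on the scaling. FGA and TTR were the 2 called, both higher at the high dose. Of 14 biliary markers, 9, 8 and 8 were well above background, with summed levels of 27.8, 30.4 and 29.1, and CFTR, SPP1, PROM1 and SCTR were among those detected on no array. CD24 rose at both doses. Of 15 mesenchymal markers, 5, 5 and 4 were well above background, with summed levels of 20.6, 30.6 and 30.5, and VIM, COL1A1, COL1A2 and COL3A1 on no array. The sum was higher at both doses, whereas the median log2 ratios over control were -0.48 and -0.47 over the genes with a ratio. Of the 5 genes measured at the low dose, 2 were above 0 and 3 below. Over the 4 genes measured at the high dose the median was -0.04, with 2 above 0 and 2 below. In this list ACTA2 rose at both doses (2.14 and 1.87) and PDGFRB fell at the high dose. The PDGFRB call was a bound, so its direction was fixed by the filter. The part of these markers in the keratin ratios was not tested.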

How the data were processed

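HepG2 RNA from 3 conditions was hybridized to 1 array each. The authors deposited, for each array, the spot intensity after background subtraction and detrending by Agilent Feature Extraction 10.7.3.1 (per the labels), together with a series table of the same intensity values. Both held equal values for all 44495 spots, so the arrays had not been scaled to each other. The sources used here name no filter on dim probes. Probe positions are those of hg18 per the file headers.

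From these, control spots and the outlier spots named by the software (335 to 392 per array) were left out, log2 values were averaged over spots of a probe and the array's 75th percentile was subtracted. The brightest probe stood for a gene. Where 1 array of a ratio was not well above background, its value was raised to the lowest signal well above background (19.5, 22.7 and 21.6 for control, low and high dose), giving a lower bound. The spot SD was taken from the 50 repeated probes nearest in signal on each array. With 1 array per condition no test was run, and the number of arrays limits the precision.

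The 10 keratins, the gene lists and the alternatives were chosen with earlier results of these data known. Named genes are all 10 keratins, in each list up to 3 genes with the largest measured ratio over control, other keratins past 2-fold, and the 3 genes most like KRT23. From the marker lists only calls and undetected genes are named. A few genes that fall under these rules are not reported here. Alternatives were 6 other scalings, normexp (limma 3.58.1 in R 4.3.3), filters on dim probes, outlier spots, the probe of a gene, the series table and thresholds of 1.5-fold and 3-fold. Ratios were tested on simulated data. Python 3.11.15, numpy 2.4.6 and pandas 2.3.3 were used.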

Additional observations from a re-analysis of the deposited data

Results flagged for a closer look

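KRT79, 1 of the 45 other keratins, was below control at the low dose (log2 ratio -1.51) and above it at the high dose (0.69), each by more than 2 spot SDs. The threshold of 2 spot SDs was chosen after keratin values were seen. The difference between the doses was not tested, and both ratios share the 1 control array. Under the 13 alternative settings the ratios ranged from -1.53 to -1.41 and from 0.40 to 0.76.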

How the results depend on the processing

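The high-dose array was the dimmest, and its ratios depended on scaling. The median log2 ratio of all genes measured at the high dose over control was 0.09 as reported, -0.16 without scaling, -0.20 with median scaling and -0.09 with spike-in scaling, and the calls were 1145 higher and 617 lower, 634 and 1071, 586 and 1181, and 750 and 914 in that order, with 780 and 785 under quantile normalization. For the high dose over the low dose, 661 higher and 611 lower became 286 and 1002 without scaling, 312 and 916 with median scaling, 388 and 735 with quantile normalization and 340 and 842 with spike-in scaling. Normexp gave 382 higher and 420 lower at the high dose and 253 and 81 at the low dose, where 564 and 263 were called as reported. Without a filter on dim probes the high dose had 3242 and 1049.

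The keratins' median at the high dose over control (0.53) was 0.28 without scaling, 0.24 with median scaling and 0.35 with spike-in scaling. Their median at the high dose over the low dose (0.20) was -0.11, -0.06 and -0.02 under these and 0.28 with the 75th percentile of all spots. The count higher at the low dose (2) was 1 with quantile normalization, normexp, a filter keeping probes detected on every array, or a 3-fold threshold, KRT23 remaining in each. The count higher at the high dose (0) was 2 without a filter on dim probes and 3 at 1.5-fold. The count lower at the high dose over the low dose (0) was 1 without scaling, with median, quantile or spike-in scaling, or without the filter, and 2 at 1.5-fold. Of 296 values of single keratins under an alternative, 230 moved by less than the spot SD (0.1 for KRT80, which has none) and 66 by more. KRT23 at the low dose ranged from 1.52 to 1.68. Of 11 calls at the high dose over control among genes named beside the 10 keratins, 9 were lost under at least 1 alternative, and of 14 at the low dose, 7.

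Signal over background left KRT17 and KRT20 without a ratio and KRT80 with bounds. No paired analysis was possible because there is only 1 array per condition, and no array was left out for the same reason.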
